A study of Mus musculus with 3 samples.

Results

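Skin repair depends on proteases that open and rebuild the extracellular matrix and on inhibitors that hold them back. The genes described here are the matrix metalloproteases (*Mmp*), the tissue inhibitors of metalloproteases (*Timp*), the disintegrin-like metalloproteases with thrombospondin motifs (*Adamts*) and the *Adamts*-like genes (*Adamtsl*). The rule takes every gene whose symbol is one of these stems followed by a digit. The rule took 50 of the 32285 genes in the files, of which 22 were *Mmp*, 4 *Timp*, 19 *Adamts* and 5 *Adamtsl*. Of these, 41 held 30 or more unique molecular identifiers (UMIs, each standing for 1 captured RNA molecule) over the 3 slides and are reported, namely 15 *Mmp*, all 4 *Timp*, 17 *Adamts* and all 5 *Adamtsl*. The other 9 were too rare to follow. *Mmp8* held 26 UMIs, *Adamts3* 19, *Mmp28* 16, *Adamts13* 5, and *Mmp20* and *Mmp24* 1 each, while *Mmp1b*, *Mmp7* and *Mmp21* had none. *Mmp1a* was not analysed here.

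The samples were 3 skin wounds of C57BL/6J mice, taken on Day 3, Day 7 and Day 14 after a full-thickness punch wound to adult males, with 1 frozen section per day. No genotype or drug treatment distinguished them, and unwounded skin was not analysed here. Each section lay on a Visium slide, whose spots carry positional barcodes and capture polyadenylated RNA from a small region that can hold several cells. With 1 section per day no test between days is possible, so values carry 95% intervals that reflect counting error alone and not the spread between animals or sections. Such sections also cannot tell apart fewer cells of a type and less RNA per cell.

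The marked spots, those the position files place under tissue, numbered 664, 549 and 697 on Day 3, Day 7 and Day 14 and held 1772259, 4442962 and 4611723 UMIs. Between 49.0% and 59.2% of the UMIs of a slide lay outside them. Marker lists of 10 genes each gave the setting of the 3 sections. The matrix fibroblast list, led by collagen genes, measured 56269, 80685 and 40954 CPM (UMIs per 1000000 UMIs) in that order of days. The granulation tissue list, with *Postn* and *Tnc*, measured 1406, 8933 and 1852 CPM. The neutrophil list measured 2276, 154 and 107 CPM, and the hair follicle list 73.9, 46.8 and 5124 CPM. Labelled as skin, all 3 sections held keratin and collagen transcripts, but only 1 of the 10 hair follicle markers reached 30 UMIs on Day 3 and on Day 7.

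Metalloproteases are made as inactive precursors, secreted or anchored at the cell surface, and cut collagens, gelatin, proteoglycans, growth factors and each other. The 4 TIMPs bind their active sites, and TIMP3, held in the matrix, also blocks several ADAMTS enzymes. In a wound, keratinocytes at the edge, infiltrating leukocytes and fibroblasts of the granulation tissue are the known sources. ADAMTS proteins divide into enzymes that trim the ends of procollagen, enzymes that cut aggrecan and versican, and less studied members, whereas the ADAMTS-like proteins have no protease domain and bind to matrix fibres.

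A gene was called higher or lower between days when its pooled CPM differed by 2-fold or more and the interval of the ratio left out no change, among genes with 30 or more UMIs over the marked spots of both sections. From Day 3 to Day 7, 9 of 34 members counted were higher and 3 were lower, against 8.42% and 7.2% of all 11781 genes counted. From Day 7 to Day 14 the picture turned. Of 37 members counted, 2 were higher and 19 were lower, against 11.7% and 7.82% of 12715 genes. Between Day 3 and Day 14, 3 of 32 members were higher and 7 lower, against 14.6% and 7.55% of 12128 genes. The median log2 ratio of the members was 0.40, -1.03 and -0.47 in these comparisons, and that of all genes counted was 0.04, 0.13 and 0.19. By peak day, 12 of the 41 members had their highest CPM on Day 3, 22 on Day 7 and 7 on Day 14. Peak days of all genes were not counted, and some peaks rest on few UMIs. *Adamts8*, for example, was placed on Day 3 with 4, 5 and 9 UMIs over Day 3, Day 7 and Day 14.

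**Figure D1:**
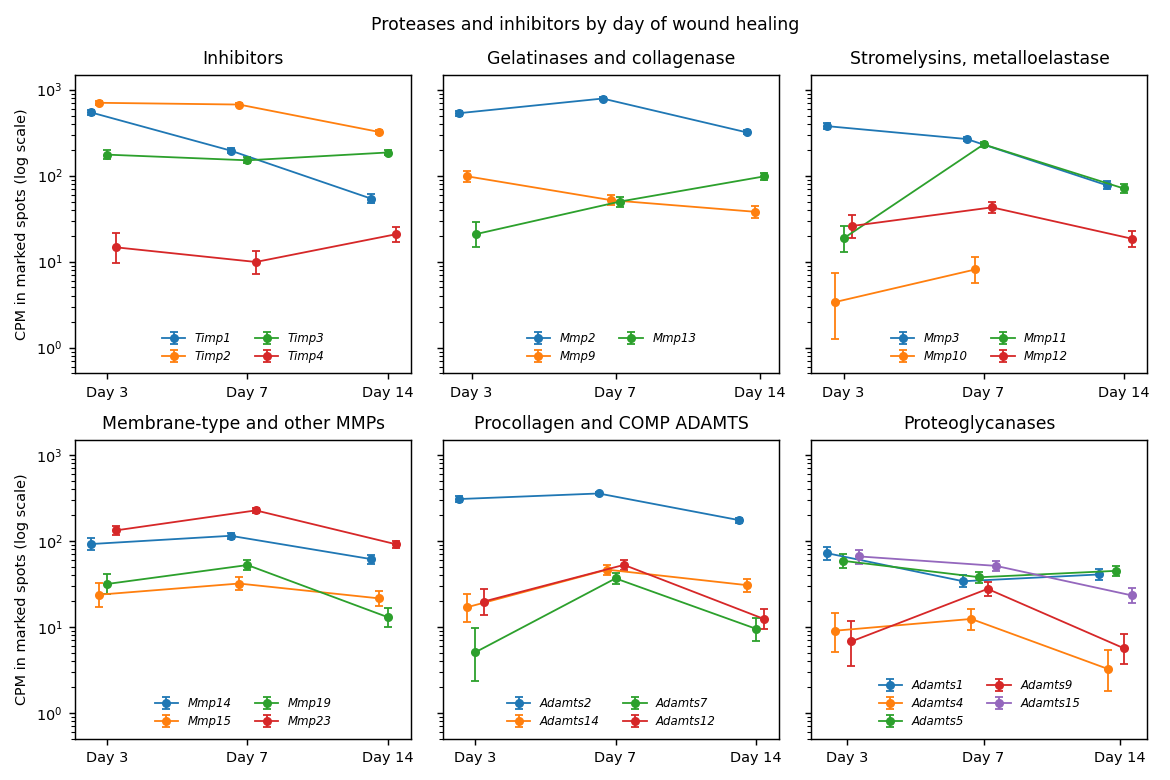
Pooled CPM in the marked spots (log axis) on Day 3, Day 7 and Day 14 for members in 6 role groups, with bars for 95% counting intervals and 1 section per day; a value of 0 is not drawn. *Timp1* fell from 546 to 54.2 CPM, *Mmp11* peaked at 231 CPM on Day 7 and *Mmp13* reached 98.0 CPM on Day 14.

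The inhibitors followed separate courses. *Timp1*, the inducible inhibitor of wounds and inflammation, measured 546 CPM (512 to 581), then 196 CPM (183 to 209), then 54.2 CPM (47.7 to 61.4) over Day 3, Day 7 and Day 14, the order kept for all values that follow. It fell at each step, with a log2 ratio of -1.48 (-1.61 to -1.35) and then -1.85 (-2.06 to -1.65), and was 10.1-fold lower on Day 14 than on Day 3. *Timp2*, which both inhibits MMP2 and takes part in its activation at the cell surface, measured 704, 671 and 322 CPM. The first 2 values differed by less than counting error (log2 ratio -0.07, -0.16 to 0.03) and Day 14 was lower than Day 7, with a log2 ratio of -1.06 (-1.15 to -0.97). *Timp3* stayed between 151 and 186 CPM. *Timp4*, known from fat and heart, was rare, with 26, 44 and 96 UMIs, and rose 2.10-fold at the second step, from 9.90 to 20.8 CPM. TMM factors (log2 ratio 0.94), DESeq2 size factors (0.95) and all spots of the slide (0.27) left it short of 2-fold, and in the unmarked spots it measured 24.6 CPM on Day 7 and 24.2 CPM on Day 14. All 4 together measured 1439, 1028 and 583 CPM.

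Gelatinases cut denatured collagen and basement membrane collagen. *Mmp2*, made by stromal cells, measured 532 CPM (499 to 567), 789 CPM (763 to 815) and 319 CPM (302 to 335). It fell 2.48-fold from Day 7 to Day 14. *Mmp9*, stored by neutrophils and made by macrophages and migrating keratinocytes, measured 98.2, 51.8 and 37.9 CPM. It was lower on Day 14 than on Day 3 by a log2 ratio of -1.37 (-1.68 to -1.06), but by less than 2-fold when all spots of the slide were used (-0.36) or matrix fibroblast UMIs were the denominator (-0.91). The 2 gelatinases thus had different peak days.

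A cluster of *Mmp* genes lies on chromosome 9. *Mmp13* runs from 7272514 to 7283331, *Mmp12* from 7344381 to 7369499, *Mmp3* from 7445822 to 7455975 and *Mmp10* from 7502352 to 7510240, all on the plus strand of GRCm38 and all protein coding. *Mmp13* is the interstitial collagenase of mice that opens fibrillar collagen. *Mmp3* and *Mmp10* are stromelysins with broad matrix substrates, and *Mmp12* is the elastase of macrophages. Stretches of 100 bases before an annotated start of each are shown because these 4 neighbours carried a common motif there. *Mmp3* peaked on Day 3, *Mmp10* and *Mmp12* on Day 7 and *Mmp13* on Day 14. For *Mmp12* the stretch lies before the second of 2 annotated starts. The promoter entry of its first start, from 7344147 to 7344446, did not hold the motif. Capitals mark the AP-1 element, searched as TGACTCA and its reverse complement TGAGTCA, and the TATAAA box, searched on the strand of the gene. The sequences are from RefSeq promoters of GRCm38.p6.
Mmp3, chr9:7445722-7445821, plus strand: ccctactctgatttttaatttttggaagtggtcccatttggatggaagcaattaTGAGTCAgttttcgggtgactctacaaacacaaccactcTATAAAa
Mmp10, chr9:7502242-7502341, plus strand: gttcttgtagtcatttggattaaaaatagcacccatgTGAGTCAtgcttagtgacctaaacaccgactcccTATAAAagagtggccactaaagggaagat
Mmp12, second of 2 starts, chr9:7347274-7347373, plus strand: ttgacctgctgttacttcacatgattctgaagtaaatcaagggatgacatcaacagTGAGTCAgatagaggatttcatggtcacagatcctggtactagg
Mmp13, chr9:7272414-7272513, plus strand: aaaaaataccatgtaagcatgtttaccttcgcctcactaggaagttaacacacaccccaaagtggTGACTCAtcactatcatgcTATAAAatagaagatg

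The AP-1 letters began 46 bases before the start in *Mmp3*, 63 in *Mmp10*, 44 in *Mmp12* and 35 in *Mmp13*. A promoter entry, from 250 bases before to 50 after the start, was found for 35 of the 50 members. The letters were in 6 of the 9 members of the chromosome 9 cluster with an entry (*Mmp3*, *Mmp10*, *Mmp12*, *Mmp13*, *Mmp1b* and *Mmp7*) and in 0 of the other 26, against 5.20% of all 32851 promoters of that length. TATAAA was in 8.32% of them, and 0.624% held both. These matches are descriptions of letters and not binding sites.

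*Mmp3* measured 377 CPM (349 to 407), 266 CPM (252 to 282) and 77.2 CPM (69.4 to 85.6), and fell 3.45-fold at the second step. *Mmp10* held 6, 36 and 0 UMIs, so that Day 14 was lower than Day 7 by a fold for which only a bound exists (ratio at most 0.0803 with 3 counts as the floor). *Mmp12* measured 26.0, 42.8 and 18.4 CPM and fell 2.32-fold from Day 7 to Day 14.

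*Mmp13* took the opposite course, with 37, 222 and 452 UMIs, or 20.9 CPM (14.7 to 28.8), 50.0 CPM (43.6 to 57.0) and 98.0 CPM (89.2 to 107). It rose 2.39-fold to Day 7, and the second step gave a log2 ratio of 0.97 (0.74 to 1.21), just under 2-fold. Over both steps it was 4.69-fold higher. With all spots of the slide, the first step missed 2-fold (log2 ratio 0.89) and the second passed it (1.86). *Mmp8*, the collagenase of neutrophils, held 15, 1 and 1 UMIs.

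*Mmp11*, or stromelysin 3, on chromosome 10 from 75923222 to 75936496 on the minus strand, is known from fibroblasts next to remodelling or invasive epithelium. It held 33, 1026 and 327 UMIs, that is 18.6 CPM (12.8 to 26.1), 231 CPM (217 to 246) and 70.9 CPM (63.4 to 79.0). The rise was 12.4-fold, with a log2 ratio of 3.63 (3.13 to 4.18), and the fall from Day 7 was 3.26-fold. *Mmp11* overlaps *Chchd10* on the opposite strand, which held 589, 1143 and 1449 UMIs. In all, 11 of the 41 members overlap another protein-coding gene in the annotation, and whether reads were counted by strand is not given in the sources used here.

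Membrane-type members act at the cell surface, and *Mmp14*, the activator of MMP2, is the best known. It measured 92.0, 115 and 61.6 CPM, and the log2 ratio of Day 14 over Day 7, -0.90 (-1.11 to -0.69), stayed short of 2-fold. *Mmp17* rose from 11 UMIs to 92 (3.34-fold in CPM) and fell to 30. *Mmp16* held 2, 27 and 4 UMIs. *Mmp15* and *Mmp25* passed neither step, with 42, 142 and 99 UMIs and 9, 23 and 42 UMIs. Of the other MMPs, *Mmp19* measured 31.6, 52.4 and 13.0 CPM and *Mmp23* 133, 227 and 91.5 CPM, and both fell from Day 7 to Day 14. *Mmp27* was rare, with 19, 17 and 26 UMIs, and was lower on Day 7 than on Day 3.

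Among the ADAMTS enzymes, *Adamts2* removes the amino-terminal propeptide of fibrillar procollagens. It measured 307 CPM (282 to 334), 357 CPM (339 to 375) and 175 CPM (163 to 187), and fell 2.04-fold from Day 7. *Adamts14*, of the same function, rose from 16.9 to 46.4 CPM and was at 30.6 CPM on Day 14. *Adamts7* and *Adamts12*, which cut cartilage oligomeric matrix protein, rose together and fell together. *Adamts7* held 9, 163 and 44 UMIs, a 7.22-fold rise in CPM and a 3.85-fold fall. *Adamts12* held 35, 234 and 57 UMIs, with a 2.67-fold rise and a 4.26-fold fall.

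The proteoglycanases, which cut aggrecan or versican, did not share 1 course. *Adamts9* rose from 6.77 to 27.7 CPM and returned to 5.64 CPM. *Adamts1* measured 72.2, 34.0 and 40.8 CPM and fell at the first step. *Adamts15* measured 66.0, 51.3 and 23.2 CPM and *Adamts4* 9.03, 12.4 and 3.25 CPM, and both were lower on Day 14 than on either earlier day. *Adamts5* measured 58.7, 37.8 and 44.9 CPM and was not called. *Adamts8* held 4, 5 and 9 UMIs.

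The less studied ADAMTS genes were scarce. *Adamts16* had 0, 36 and 9 UMIs, and was at least 4.79-fold higher on Day 7 than on Day 3, with 3 counts over the Day 3 section as the floor. *Adamts6* had 0, 29 and 3 UMIs and fell 10.0-fold from Day 7 to Day 14. *Adamts17* rose from 4 to 41 UMIs (4.09-fold in CPM). *Adamts10*, the most even of these, measured 36.7, 47.5 and 32.1 CPM. *Adamts18* was highest on Day 14, with 1, 7 and 40 UMIs, and *Adamts20* held 0, 4 and 25 UMIs, too few to be counted. The hair follicle list moved with this pair, from 131 and 208 UMIs to 23630 UMIs on Day 14. Its part in their rise was not tested. *Adamts19* held 2, 8 and 12 UMIs.

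None of the 5 ADAMTS-like genes was called in a comparison in which it was counted. *Adamtsl5* measured 69.4, 41.4 and 51.2 CPM, *Adamtsl4* 45.1, 25.7 and 36.9 CPM and *Adamtsl1* 20.9, 23.6 and 12.4 CPM. *Adamtsl2* held 8, 27 and 18 UMIs and *Adamtsl3* 5, 8 and 5 UMIs. The family summed to 143, 98.6 and 105 CPM, so its order of days differed from that of the *Adamts* enzymes, which summed to 605, 732 and 405 CPM.

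**Figure D2:**
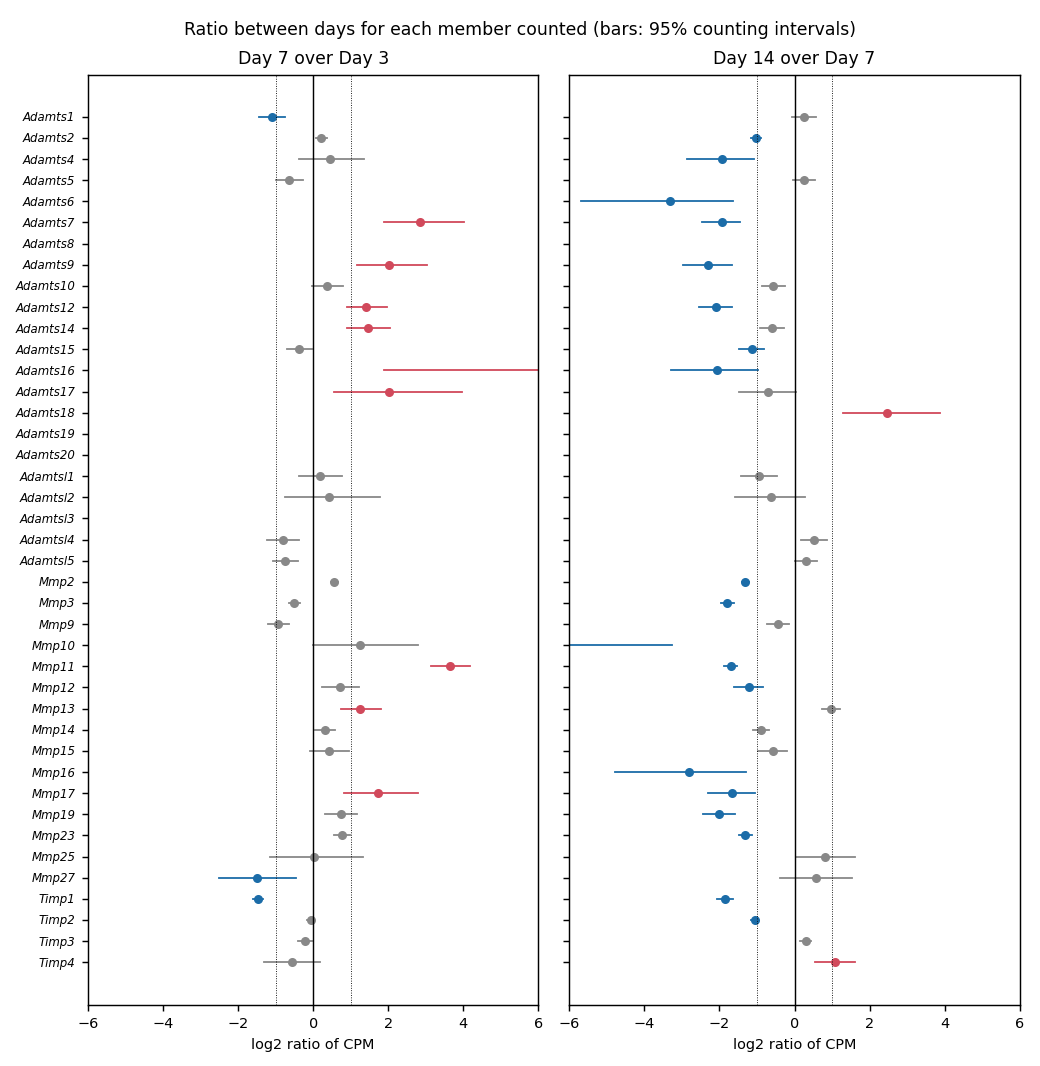
Log2 ratio of CPM between consecutive days for each member counted, with bars for 95% counting intervals (bars are cut at the axis limits); red marks 2-fold higher, blue 2-fold lower, grey neither, a bar without a point a ratio against 0, and a blank row fewer than 30 UMIs. In Day 7 over Day 3, 9 members are red and 3 blue, and in Day 14 over Day 7, 2 are red and 19 blue.

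The fall from Day 7 to Day 14 ran beside the fall of the collagen-led list. Measured per UMI of the matrix fibroblast list in place of all UMIs, 6 of the 19 lower calls were kept, those of *Adamts6*, *Adamts9*, *Adamts12*, *Mmp10*, *Mmp16* and *Mmp19*. On that scale the Day 14 over Day 7 log2 ratio was -0.33 for *Mmp2*, 0.08 for *Mmp14*, -0.05 for *Adamts2* and -0.08 for *Timp2*. It was 1.95 for *Mmp13* and 1.28 for *Timp3*. Of the 9 higher calls of Day 7 over Day 3, 6 were kept (*Adamts7*, *Adamts9*, *Adamts16*, *Adamts17*, *Mmp11* and *Mmp17*), with 3.11 for *Mmp11*. For *Timp1* it was -2.00 at the first step and -0.87 at the second. Over all spots of the slide, in place of the marked ones, the Day 14 over Day 7 log2 ratio was -0.93 for *Mmp2*, -0.61 for *Timp2*, -0.99 for *Timp1*, -0.78 for *Adamts2* and -0.86 for *Adamts15*, each short of 2-fold. The Day 7 over Day 3 log2 ratio on that scale was -0.94 for *Adamts1* and -0.96 for *Mmp27*, also short of it. The matrix denominator moves the median of all genes to -0.48, 1.11 and 0.64 for Day 7 over Day 3, Day 14 over Day 7 and Day 14 over Day 3.

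Next, proteases were set against inhibitors within each section. Because genes differ in how well their RNA is captured, only the change of a ratio over the days is read, not its distance from 1. All *Mmp* UMIs per *Timp* UMI numbered 0.964 (0.912 to 1.02), 1.85 (1.78 to 1.92) and 1.43 (1.36 to 1.50). All *Adamts* UMIs per *Timp* UMI numbered 0.420 (0.391 to 0.451), 0.712 (0.681 to 0.745) and 0.695 (0.655 to 0.737). Both ratios were lowest on Day 3, and the Day 7 and Day 14 intervals overlapped for *Adamts* but not for *Mmp*.

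Pairs of an enzyme and an inhibitor known to bind it moved by unequal amounts. *Mmp13* per *Timp1* UMI went from 0.0383 (0.0268 to 0.0531) to 0.255 (0.219 to 0.296) and 1.81 (1.55 to 2.12), with 37 over 967, 222 over 869 and 452 over 250 UMIs. *Mmp9* per *Timp1* UMI went from 0.180 to 0.265 and 0.700, although *Mmp9* itself fell. *Mmp3* per *Timp1* UMI was 0.691 on Day 3 and then 1.36 and 1.42, whose intervals overlapped. *Mmp2* per *Timp2* UMI was 0.756, 1.17 and 0.989, and *Mmp14* per *Timp2* UMI 0.131, 0.171 and 0.191. *Adamts5* per *Timp3* UMI, at 0.334, 0.251 and 0.242, was the only pair of the 6 that was highest on Day 3, with intervals that overlapped.

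**Figure D3:**
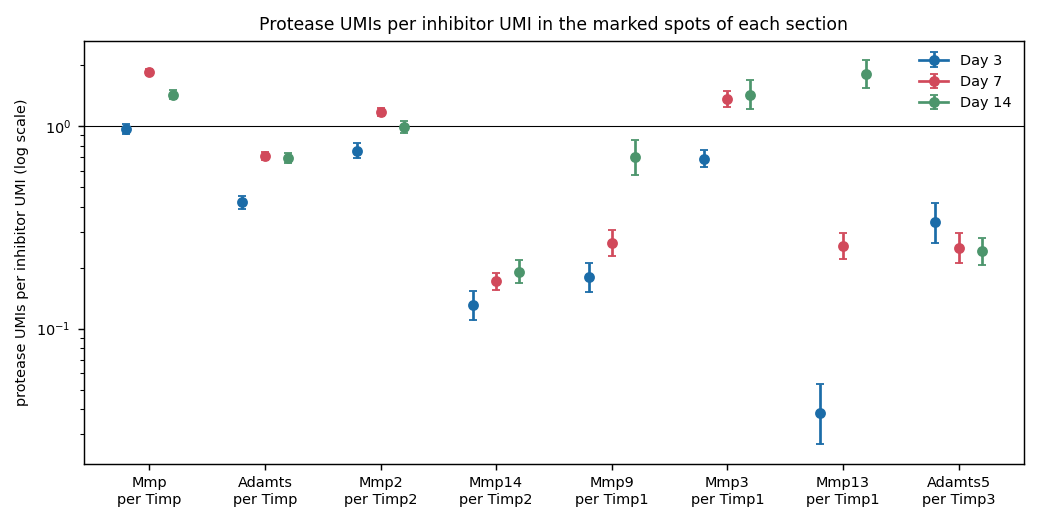
Protease UMIs per inhibitor UMI (log axis) in the marked spots of each section for the 2 family ratios and 6 pairs, with bars for 95% counting intervals. *Mmp13* per *Timp1* spans 0.0383 on Day 3 to 1.81 on Day 14, while *Adamts5* per *Timp3* stays between 0.242 and 0.334.

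To place the members in each section, the 10% of marked spots (of those with 500 or more UMIs) richest in a marker list were compared with the other spots of that section. No marker list holds a member. Of the members with 20 or more UMIs, 18 of 24 on Day 3, 18 of 35 on Day 7 and 20 of 32 on Day 14 were more abundant in at least 1 marker set. Of all genes outside the marker lists with as many UMIs, 60.1%, 43.4% and 52.3% were. The set with the highest lower bound is named. It was the matrix fibroblast or granulation tissue set for 11, 11 and 10 of them. The share of all genes with 1 of these 2 sets named was not counted, so these numbers are not read as a trait of the members. The 2 sets shared 68.5% of their spots on Day 7 and 60.9% on Day 14, so they are not separate places on these days. On Day 7 spots of the granulation set held a median of 17414.5 UMIs against 6044 elsewhere, and after thinning every spot to 1000 UMIs 6 members had a named set on Day 7, against 13 on Day 3 and 10 on Day 14. The named set was then the same one for 3 of the 18 members on Day 7, 9 of 18 on Day 3 and 5 of 20 on Day 14. With 5% or 20% of spots in a set it was the same for 10 and 13 members on Day 3, 9 and 9 on Day 7 and 13 and 12 on Day 14.

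On Day 3 *Timp1* and *Mmp2* were placed in different sets. *Timp1* reached 1674 CPM in the granulation set and 415 CPM elsewhere, 4.03-fold (3.51 to 4.63), and in the matrix fibroblast set it was below the other spots, at 204 against 622 CPM. *Mmp2* reached 1457 CPM in the matrix fibroblast set against 339 CPM elsewhere, 4.30-fold (3.77 to 4.89). *Timp2* (3.21-fold), *Adamts2* (3.68-fold) and *Mmp3* (2.05-fold) were also placed in the matrix fibroblast set. *Mmp* UMIs per *Timp* UMI were accordingly 0.726 (0.624 to 0.844) in the granulation set and 1.23 (1.11 to 1.36) in the matrix fibroblast set. The spots outside the granulation set had 1.01 (0.955 to 1.08) on Day 3. By Day 14 the granulation set was above the spots outside it, at 1.79 (1.59 to 2.02) against 1.36 (1.29 to 1.44). The matrix fibroblast set was then at 1.76 (1.57 to 1.97), which overlaps the interval of the granulation set. On Day 7 the granulation set and the spots outside it were at 1.75 and 1.89 with overlapping intervals.

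*Mmp9* and *Mmp13* were placed in the neutrophil set on Day 3. *Mmp9* measured 516 CPM there and 77.1 CPM elsewhere, 6.69-fold (4.60 to 9.54). A single spot held 17 of its 174 UMIs, and without it the ratio was 4.41-fold (2.75 to 6.80). With 5% of spots in the set it was 2.52-fold, with an interval that holds no change. *Mmp13* measured 196 CPM there from 16 of its 37 UMIs and 12.6 CPM elsewhere, 15.6-fold (7.63 to 31.5), and 122 CPM in the wound keratinocyte set, which holds *Krt6a* and *Krt16*. For *Mmp13*, 8 of the 37 UMIs lay in 1 spot, and without it the neutrophil set stood 8.66-fold above the rest (3.32 to 20.4). The spot left out for *Mmp9* and that for *Mmp13* lay in the neutrophil set. Each held 7875 of the 81451 UMIs of the set, so they may be the same spot. The neutrophil set shared 12 of its 52 spots with the wound keratinocyte set. On Day 7 *Mmp13* was placed in the granulation set, at 1.72-fold, and *Mmp9* in the pericyte set, at 2.06-fold, which thinning to 1000 UMIs a spot turned to 0.606-fold. On Day 14 *Mmp13* was spread over the section, 1.52-fold higher in the resting fibroblast set (1.03 to 2.17), and *Mmp9* had no named set.

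*Mmp11* and *Mmp14* stood further above the other spots on Day 14 than on Day 7. *Mmp11* measured 250 CPM in the granulation set and 52.0 CPM elsewhere on Day 14, 4.81-fold (3.79 to 6.07), against 1.80-fold (1.58 to 2.06) on Day 7. *Mmp14* measured 257 CPM in the matrix fibroblast set and 40.2 CPM elsewhere on Day 14, 6.40-fold (5.01 to 8.16), against 1.95-fold (1.61 to 2.35) on Day 7. *Mmp23* (4.21-fold, matrix fibroblast set) and *Adamts15* (4.05-fold, granulation set) were placed there on Day 14 too. These sets shared 42 of 69 spots on Day 14. The lists themselves also differed in contrast between these days. The matrix fibroblast list had a median share of 11.1% in its set and 6.84% elsewhere on Day 7, and 8.80% and 3.40% on Day 14. For the granulation tissue list these shares were 1.50% and 0.654% on Day 7, and 0.445% and 0.147% on Day 14. Folds of different days are therefore not on 1 scale.

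**Figure D4:**
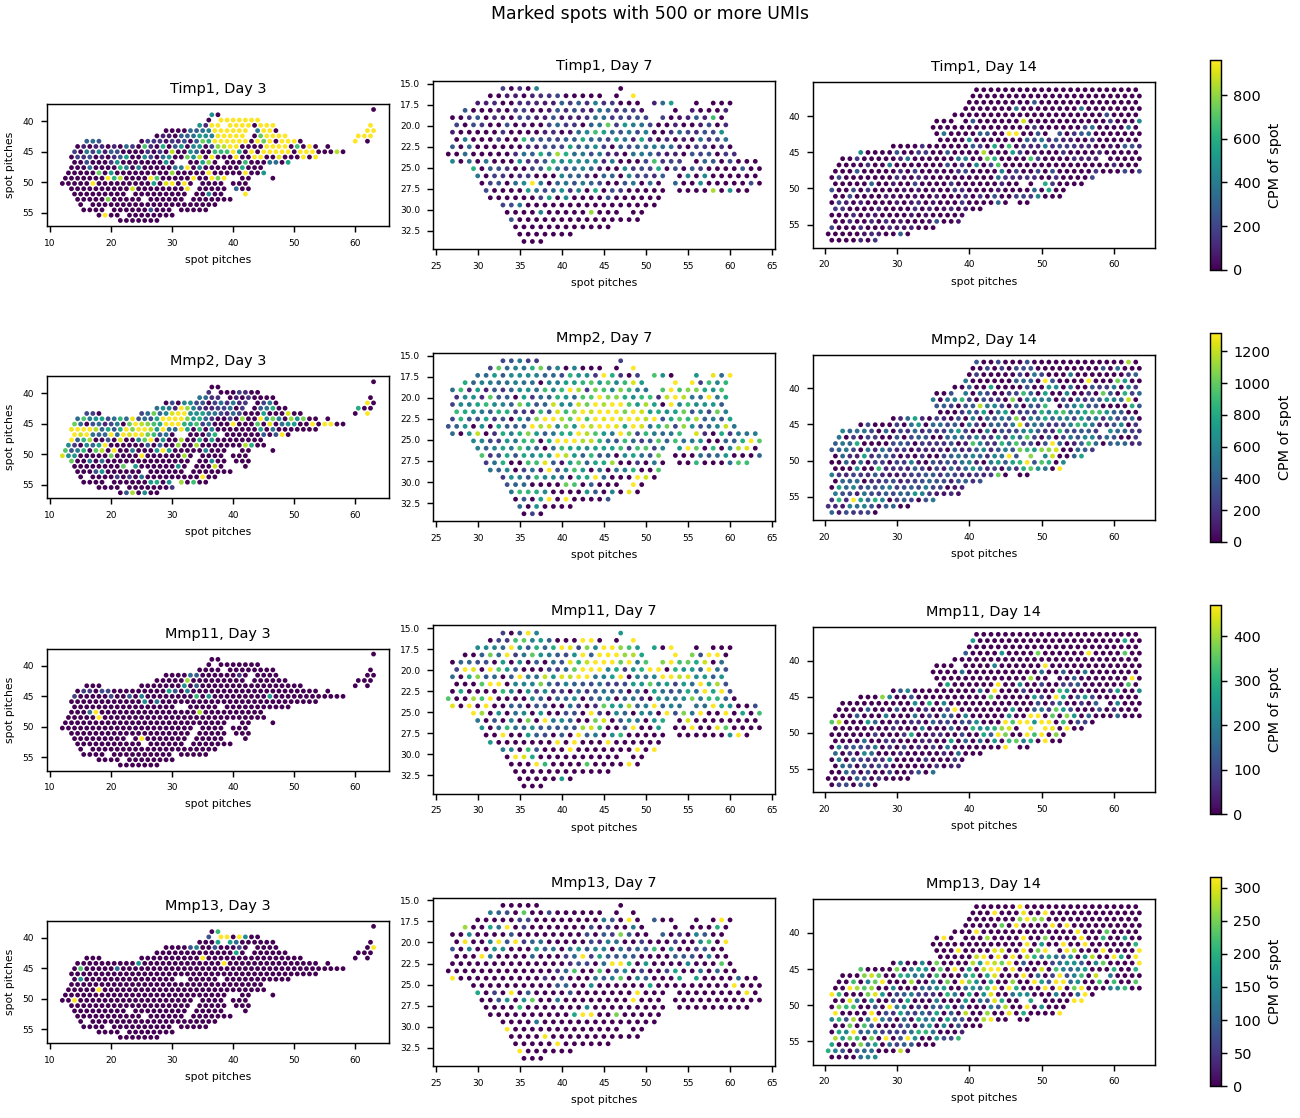
Marked spots with 500 or more UMIs of the 3 sections, coloured by CPM of *Timp1*, *Mmp2*, *Mmp11* and *Mmp13* on a linear scale per gene that stops at its 95th percentile over the 3 sections, with positions in spot pitches. *Timp1* gathers at 1 side of the Day 3 section, where *Mmp2* is lower, *Mmp11* gathers in a patch on Day 14, and *Mmp13* is spread on Day 14.

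Other members had places of their own. *Adamts5* was placed in the resting fibroblast set, with *Pi16* and *Clec3b*, on all 3 days, at 3.22-fold, 2.15-fold and 2.30-fold. *Adamts1* was placed in the endothelial set on Day 3, at 2.46-fold (1.56 to 3.77), and *Timp3* in the pericyte set, at 2.63-fold (1.94 to 3.52). *Mmp12* was placed in the macrophage set on Day 7 (2.78-fold, 2.02 to 3.79) and Day 14 (3.63-fold, 2.10 to 6.02) but in the wound keratinocyte set on Day 3 (2.94-fold, 1.39 to 5.82), where 10 of its 46 UMIs lay in 1 spot outside that set. *Timp4* was placed in the fat set on Day 14, at 3.52-fold (1.95 to 5.99). *Adamts20* was placed in the hair follicle set on Day 14, at 2.62-fold from 9 of 25 UMIs, and *Adamts18* had 12 of 40 UMIs there, with an interval that holds no change. With 5% of spots in a set, intervals held no change for *Timp4* in the fat set (1.90-fold), *Adamts20* in the hair follicle set (1.75-fold), *Mmp12* in the wound keratinocyte set (2.29-fold) and *Adamts5* on Day 3 (1.71-fold). After thinning, *Adamts1* in the endothelial set was at 1.71-fold with such an interval, *Mmp12* in the macrophage set on Day 14 was at 0.691-fold and *Adamts20* had no UMI left in its set.

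**Figure D5:**
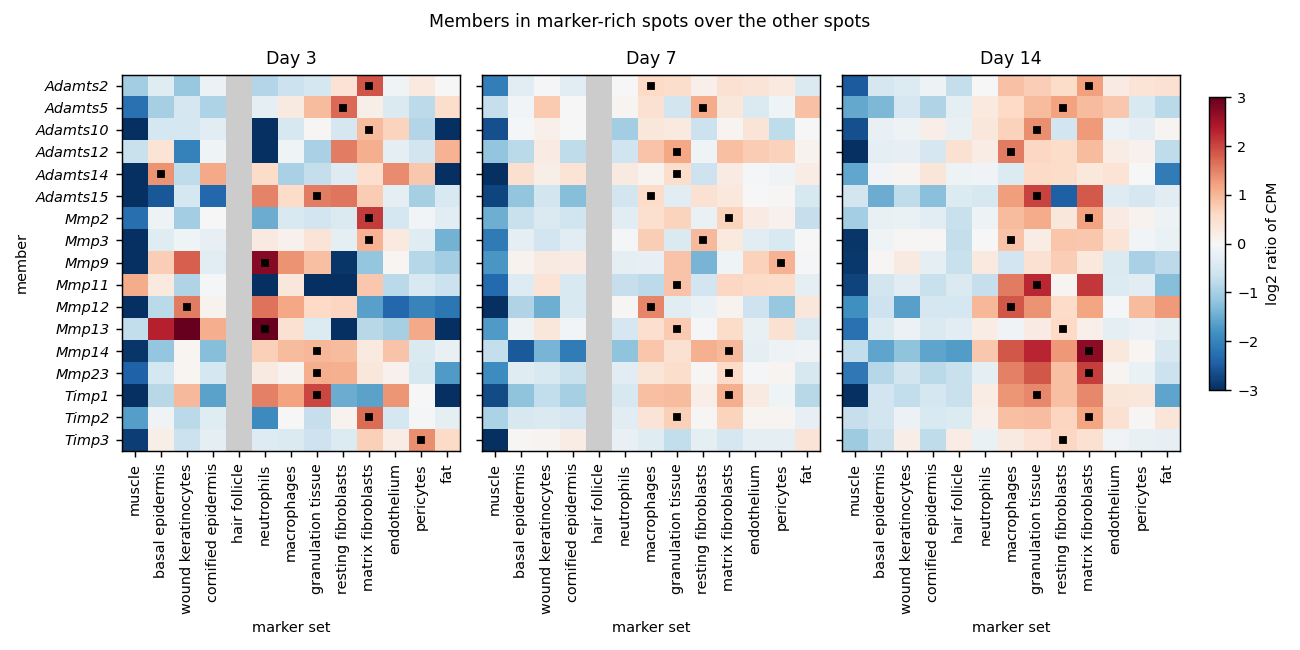
Log2 ratio of CPM in each marker set over the other spots, limited to 3 in either direction, for the 17 members with a named set on at least 2 days; black squares mark the named set and grey a set left out for too few markers. *Mmp2* changes from a matrix fibroblast ratio of 4.30-fold on Day 3 to 1.59-fold on Day 7, and *Adamts5* is marked in the resting fibroblast column on all 3 days. On Day 3 the matrix fibroblast list itself had a median share of 13.1% in its set and 2.91% elsewhere. On Day 7 it had 11.1% and 6.84%.

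The unmarked spots were compared with the marked ones on each slide. Of the members with 20 or more UMIs on a slide, 18 of 25 on Day 3, 29 of 37 on Day 7 and 20 of 34 on Day 14 had a lower CPM in unmarked than in marked spots, and 1, 1 and 2 had a higher one. Of all genes with as many UMIs, 35.6%, 45.5% and 56.6% were lower and 9.64%, 11.1% and 8.17% higher. The muscle, fat and neutrophil lists were higher in unmarked spots on every day. The neutrophil list measured 5145 against 2276 CPM on Day 3, 200 against 154 CPM on Day 7 and 215 against 107 CPM on Day 14. *Timp4* was higher in unmarked spots on Day 3 (35.8 against 14.7 CPM) and Day 7 (24.6 against 9.90 CPM). On Day 14 *Mmp9* measured 92.0 CPM in unmarked and 37.9 CPM in marked spots, and *Mmp13* 161 and 98.0 CPM.

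Part of the Day 14 signal came from 9 unmarked spots, between 7 and 17.3 spot pitches from the nearest marked spot, with 10 or more UMIs of the bone genes *Ibsp*, *Bglap*, *Bglap2* and *Dmp1*, a list made after the data were seen. They held 303 *Mmp13*, 204 *Mmp9* and 139 *Timp1* UMIs, that is 39.9%, 47.0% and 46.2% of the unmarked UMIs of each. Without these spots the unmarked over marked ratio was 1.02 for *Mmp13* (0.890 to 1.16) and 1.32 for *Mmp9* (1.08 to 1.62). Marked spots held 328 UMIs of the 4 bone genes on Day 14 and 0 and 16 on Day 3 and Day 7. If these marked bone-gene UMIs came with members at the ratio of the 9 spots, 72.9 CPM of *Mmp13* would be left in the marked spots on Day 14. For *Mmp9* it would be 21.1 CPM and for *Timp1* 42.7 CPM. Whether that ratio holds in the marked spots is not known. The part of bone in the Day 14 level of *Mmp13*, *Mmp9* and *Timp1* there was not tested.

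Other parts of the protease network were followed through 34 genes (plasminogen activators, cathepsins, ADAM proteases, procollagen C-proteinase and convertases), of which 28 were counted. From Day 3 to Day 7, 5 were higher and 4 lower, from Day 7 to Day 14 0 and 10, and from Day 3 to Day 14 1 and 10, against the same shares of all genes as above. The median log2 ratio was -0.12, -0.71 and -0.57. *Plat*, tissue plasminogen activator, measured 34.4, 159 and 26.5 CPM, and *Adam12*, a fibroblast ADAM protease, 23.1, 167 and 32.3 CPM, and both were highest on Day 7, as *Mmp11* was. *Bmp1*, the procollagen C-proteinase, fell from 592 to 204 CPM between Day 7 and Day 14, beside *Adamts2*.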

How the data were processed

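Raw UMI counts per gene and spot were used as the authors deposited them, with no normalization. The submitters' processing notes name Space Ranger 1.3.0 and mm10, and the deposited position files mark the spots under tissue. Counts were summed over marked spots and given as CPM. Sums carry exact Poisson and ratios exact conditional binomial 95% intervals, which cover counting error only. UMI totals were lowest on Day 3, whose intervals are the widest. A gene without a UMI was given a floor of 3 counts. Groups are the labelled days with 1 section each, which allows no test between them, and spots do not count as replicates.

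Every member with 30 or more UMIs over the slides is reported, in role groups, with 6 enzyme and inhibitor pairs, 34 further genes and 13 marker lists. Not every gene of these lists is reported here. Members and lists were chosen with earlier results of these data known. A marker set needed 3 markers with 30 or more UMIs in a section, a rule made after the data were seen, which left out the hair follicle set on Day 3 and Day 7. Gene positions are from GENCODE M21 and promoters from RefSeq, both of the mm10 build (GRCm38).

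Alternatives were TMM factors (edgeR 4.0.16), size factors (DESeq2 1.42.0), the mean of spot CPM, other spots, minimums, thinning and marker-set sizes, and the matrix fibroblast list as denominator. Python 3.11.15, numpy 2.4.6, scipy 1.17.1, matplotlib 3.10.9 and R 4.3.3 were used. Intervals and calls were tried on simulated counts with known folds. These counts held counting error alone, as the intervals assume, and every changed gene was set beyond the 2-fold limit. The trial therefore says nothing about the spread between spots, sections or animals.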

Additional observations from a re-analysis of the deposited data

Results flagged for a closer look

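*Timp4* on Day 3 and Day 7 and *Mmp9* and *Mmp13* on Day 14 were flagged because they were more abundant in the unmarked spots, which no comparison between days used, than in the marked ones. The ratios were 2.44 (1.52 to 4.03) and 2.49 (1.77 to 3.56) for *Timp4*, 2.43 (2.03 to 2.91) for *Mmp9* and 1.64 (1.46 to 1.85) for *Mmp13*.

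The other flagged values are members whose CPM lay above the other spots in a marker set on 1 day and below them on another, with intervals that left out no change on both. Each day had 1 section, and these differences between days were not tested. *Timp1* in the matrix fibroblast set had log2 ratios of -1.61, 1.09 and 1.43 over Day 3, Day 7 and Day 14. *Timp2* in the granulation tissue set had -0.70, 0.71 and 0.93. The matrix fibroblast and granulation tissue sets shared 2 of 52 spots on Day 3, 37 of 54 on Day 7 and 42 of 69 on Day 14. *Adamts2* in the macrophage set had -0.64, 0.60 and 0.88. The macrophage set shared 0 of 52 spots with the matrix fibroblast set on Day 3, 23 of 54 on Day 7 and 25 of 69 on Day 14. A set of the same name is thus not the same place on each day. *Mmp12* in the wound keratinocyte set had 1.55 on Day 3, -1.46 on Day 7 and -1.63 on Day 14. On Day 14 the wound keratinocyte set shared 31 of 69 spots with the hair follicle set. Only 5 of its 10 markers reached 30 UMIs on that day. *Adamtsl5* in the matrix fibroblast set had 0.97 on Day 3 and -0.63 on Day 7.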

How the results depend on the processing

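Values rest on 1 section per day and on UMI counts, fewest on Day 3, so rare members have wide intervals. No paired analysis was possible because each day had 1 section, and for the same reason no sample could be left out. Of 866 recomputed day ratios of single members, 790 kept their call or lack of one. In the others 38 calls were lost and 38 gained, and 0 calls changed direction. The 101 ratios without a minimum and the 75 with 100 UMIs as the minimum rest on unchanged counts and could not change. With the matrix fibroblast list as denominator, 63 of 101 stayed the same. Ratios without a call could change sign, as for *Mmp9* in Day 14 over Day 7, -0.45 in the main analysis and 0.53 with that denominator. The causes of the changes below were not tested. TMM and DESeq2 size factors ended the call of *Timp4* and left 1 member higher on Day 14 than Day 7. With 100 UMIs as the minimum 1 member was higher too, because *Adamts18*, with 7 and 40 UMIs, was no longer counted. Leaving out muscle-rich spots also gave 1 member higher. Against the matrix fibroblast list Day 14 over Day 7 had 10 higher and 6 lower calls, and Day 14 over Day 3 had 7 and 3. Day 7 over Day 3 had 9 lower. That denominator moved the median log2 ratio of all genes to 1.11, 0.64 and -0.48 in this order. The shares of all genes called were not counted for any alternative. The mean of spot CPM gave 5 higher for Day 14 over Day 3, and all spots of the slide gave 1 lower for Day 7 over Day 3. Over all spots, *Mmp* per *Timp* UMI was 0.904, 1.67 and 1.31 on the 3 days and *Adamts* per *Timp* UMI 0.558 on Day 14. Thinning gave 1.03 for *Mmp* on Day 3 and 0.678 and 0.620 for *Adamts* on Day 7 and Day 14. Without the most abundant protease and *Timp2*, *Mmp* gave 1.16, 3.12 and 1.97, and *Adamts* 1.05 and 0.883 on Day 7 and Day 14. Of 227 recomputed places of members, 175 stayed called, 43 were lost and 9 changed direction. Thinning, which leaves fewer UMIs per member, gave 6 and 10 named sets on Day 7 and Day 14, of which 3 and 5 were the set named before. It turned the named place of *Adamts12* (0.941), *Adamts14* (0.674), *Adamts4* (0) and *Mmp9* (0.606) on Day 7, *Adamts14* (0) on Day 3, and *Adamts20* (0), *Mmp12* (0.691) and *Mmp17* (0) on Day 14, and sets of 5% turned *Adamts17* on Day 14 (0.753). Chosen after seeing the data, leaving out the bone-gene spots ended the excess of *Mmp13* in unmarked spots and kept that of *Mmp9*. The ratios without a single spot were added after seeing the data too.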

Other observations

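The 9 unmarked Day 14 spots rich in bone genes were 0.210% of the unmarked spots and held 2.61% of their UMIs. In them *Mmp13* measured 2464 CPM (2194 to 2758), *Mmp9* 1659 CPM (1439 to 1903) and *Timp1* 1130 CPM (950 to 1335). *Ibsp*, bone sialoprotein, measured 3863 CPM and *Bglap*, osteocalcin, 2131 CPM, and *Acp5*, the tartrate-resistant phosphatase of osteoclasts and some macrophages, 3375 CPM. The spot with most *Mmp13* held 71 UMIs of it, whereas no marked Day 14 spot held more than 6. Per UMI of the 4 bone genes there were 0.353 *Mmp13*, 0.237 *Mmp9* and 0.162 *Timp1* UMIs in these spots and 1.38, 0.534 and 0.762 in the marked spots. The spots and the list were chosen after the data were seen, and the labels name no bone.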
